A study of Homo sapiens with 2 samples.

Results

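The genes described here are glycosyltransferases, which build sugar chains on proteins and lipids, and the sulfotransferases that decorate those chains. The enzyme families were chosen with earlier results of these data known, so the choice may not be independent of the values. Within them, genes were taken by symbol alone, from the prefixes of 21 families in the array's probe annotation. Antisense genes (5 probe sets) were left out. This gave 62 of the 13763 genes named on the array. Expression was compared between 2 cultures of S2-013, a human pancreatic cancer cell line. In both, HOXB7 had been knocked down and a plasmid carrying a rescue form of HOXB7 transfected, and 1 culture also received a MEK inhibitor. Each culture was read on 1 Affymetrix whole-transcript array, so the values have no replicate error and there is no test and no p-value. The sources used here do not give the inhibitor's name or dose, the time of exposure, or whether the knockdown line was a single clone. The design text places the comparison in a search for genes under the control of HOXB7 and MEK signalling, where HOXB7 is a homeobox transcription factor and MEK is the kinase that activates ERK.

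Sugar chains are assembled stepwise in the endoplasmic reticulum and the Golgi, each enzyme adding 1 kind of sugar or sulfate in 1 kind of linkage. Mucin-type O-glycans start with N-acetylgalactosamine on serine or threonine. N-glycans are first built on a lipid and moved to the protein as a block. Glycosaminoglycans such as heparan and chondroitin sulfate are long chains that start from a xylose on a proteoglycan core, and their sulfation patterns decide which growth factors they bind. Altered mucin-type O-glycans on epithelial mucins are a well-known feature of pancreatic carcinomas.

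The annotation used here covered these families unevenly. It named 19 GALNT, 15 CHST, 14 heparan sulfation (NDST, HS2ST, HS3ST and HS6ST), 5 EXT, 3 ALG, 2 XYLT and 1 FUT gene. No gene was named for B3GNT, B3GALT, B4GALT, B4GALNT, GCNT, ST3GAL, ST6GAL, ST8SIA or MAN2. Branching, galactosylation and sialylation of glycans are therefore not analysed here. The 2 MGAT symbols (MGAT4EP and MGAT4FP) are transcribed pseudogenes, and the only MAN1 symbol, MAN1B1-DT, is a long non-coding RNA. The other 59 genes code for proteins.

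Values are deposited log2 expression values, 1 per probe set, and a difference is the value with the inhibitor minus the value without it. For a gene with several probe sets the one with the highest mean was used. The floor was set at 4.78, which is the median of the genes' means over both arrays, and a gene was above it if it reached that value on at least 1 array. In all 7164 genes did so, among them 27 of the 62. The other 35 lay below it on both arrays, and whether they were above background is unknown. The epithelial keratin and adhesion markers named on the array were above the floor in 7 of 7 cases, where 7164 of 13763 genes were. KRT7 (4.56 without and 4.91 with the inhibitor) passed it only on the array with the inhibitor. Markers of fibroblasts (2), endothelium (3), acinar cells (2) and endocrine cells (3) were all below the floor. Of 3 leukocyte markers only CD68 was above it. The 10 ERK response genes listed all read at least 2-fold lower with the inhibitor, as did 1.05% of all genes above the floor. Their response was known from earlier results of these data, so they are no independent check of the inhibitor. Levels of different genes come from different probes and are not compared.

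Most of the glycan enzyme genes above the floor read slightly higher with the inhibitor, and none differed by 2-fold. Of the 27, 21 were higher and 6 lower, while 53.9% of all genes above the floor were higher and 46.1% lower. GALNT12 and XYLT2 reached the floor only on the array with the inhibitor, so they could only be counted as higher. Without them 19 of 25 were higher, against 53.8% of all genes above the floor on both arrays. A floor on the mean of both arrays does not favour a direction. With it 20 of 26 were higher, against 53.7% of all genes selected in that way. The median difference of the 27 was 0.21, against 0.03 over all 7164 genes, and their differences ran from -0.52 (HS3ST1) to 0.61 (NDST1). At least 1.5-fold higher was 1 of the 27 (4.62% of all genes), and none was at least 1.5-fold lower (3.60% of all genes). None was at least 2-fold higher (0.628% of all genes) or 2-fold lower (1.05% of all genes). The shares past each fold were thus no larger than those of all genes, and the preponderance of higher values is a description of these arrays only. Where a gene had several probe sets, their differences disagreed by 0.16 in the median of 443 pairs. Of the pairs, 95% disagreed by no more than 0.80. The pairs came from 145 genes and from probe sets that reached the floor, leaving out genes with identical probe set values. All were read on the same 2 arrays, so this spread holds no variation between cultures or arrays. None of the 27 differed by more than 0.80, a size that 3.52% of all genes above the floor exceeded. Of the 35 genes below the floor, 17 were higher and 18 lower, with differences from -0.61 to 0.56. The share over all genes below the floor was not computed.

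**Figure D1:**
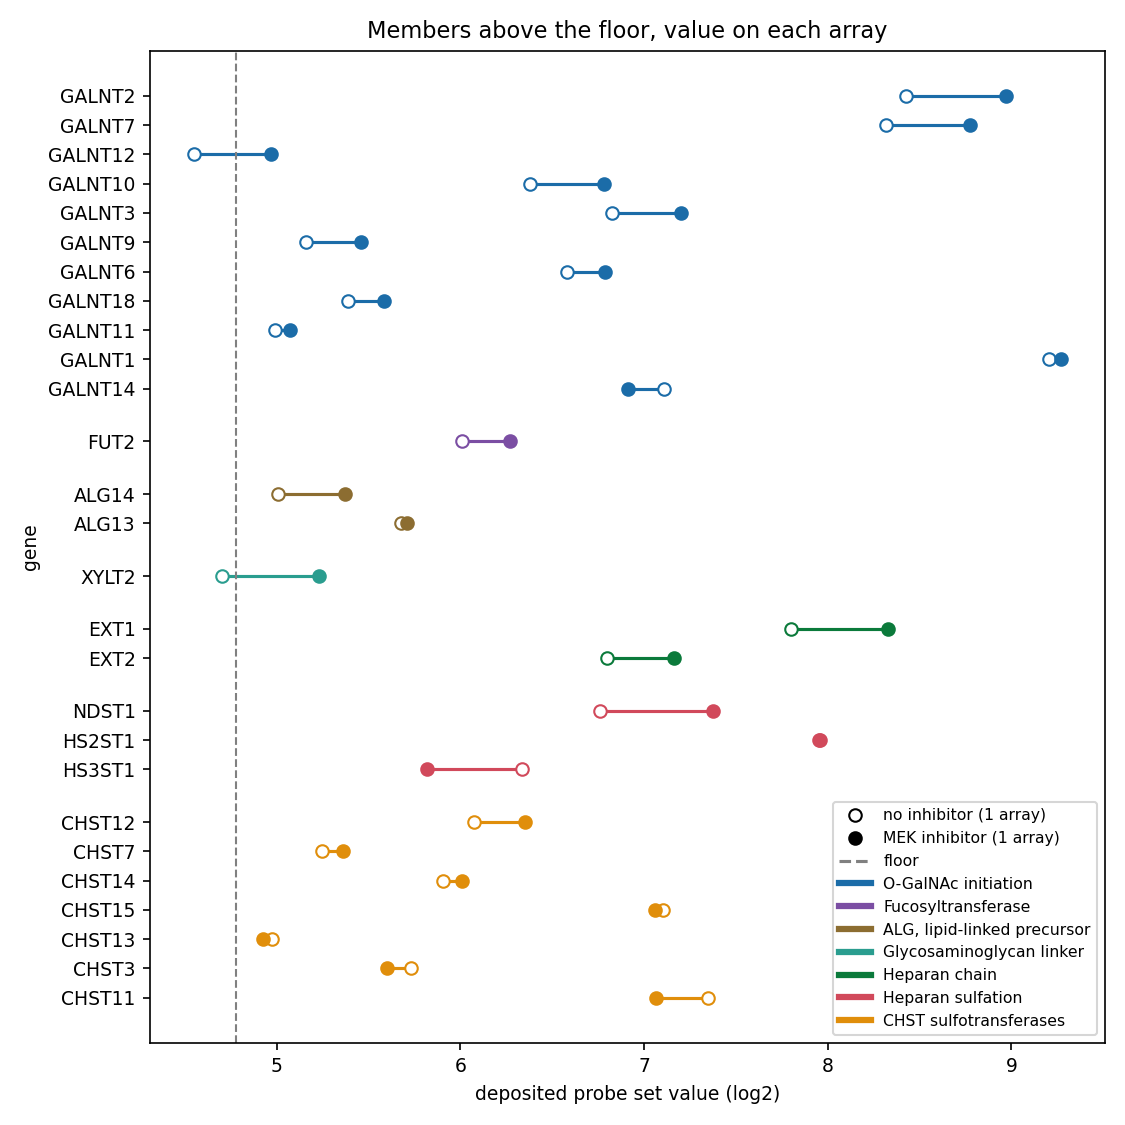
Deposited log2 value of each of the 27 genes above the floor, without the MEK inhibitor (open circles) and with it (filled circles), 1 array each, grouped by enzyme role; the dashed line is the floor of 4.78. Filled circles lie to the right for 21 genes, the widest gap is that of NDST1 (6.76 and 7.37), and the circles of HS2ST1 lie on top of each other.

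The GALNT genes, grouped as O-GalNAc initiation by symbol alone, were the group with the most genes. Enzymes of this family transfer N-acetylgalactosamine to serine or threonine and differ in the peptides they prefer. Some act on peptides that already carry this sugar, and enzyme activity was not measured here. Of 19 named, 11 were above the floor and 10 of these were higher (53.9% of all genes), with a median difference of 0.30. A floor on the mean of both arrays leaves out GALNT12. With it 9 of 10 were higher (53.7% of all genes so selected), with a median of 0.25. None reached 1.5-fold. GALNT2, a broadly acting family member, read 8.43 without the inhibitor and 8.97 with it, a difference of 0.54 (1.46-fold). It is the only GALNT gene with 2 probe sets, and the second one, which lay below the floor, read 3.59 and 3.65, a difference of 0.06. GALNT7, which acts on peptides that already carry N-acetylgalactosamine, read 8.32 without and 8.77 with the inhibitor (0.45). GALNT10, which shares that preference, read 6.38 and 6.78 (0.40).

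GALNT12 read 4.55 without and 4.97 with the inhibitor (0.42), so it passed the floor only through the array with the inhibitor. GALNT3, which glycosylates the hormone FGF23 and protects it from cleavage, read 6.83 and 7.20 (0.38). Its close relative GALNT6 read 6.58 and 6.79 (0.21). These differences lay above the median disagreement between probe sets and well inside its 95% limit. Differences above that median were common, at 55.5% of all genes above the floor, so exceeding it does not set these genes apart. GALNT9 read 5.16 without and 5.46 with the inhibitor (0.30), and GALNT18 read 5.39 and 5.58 (0.19). GALNT1, another widely expressed initiating enzyme, read 9.20 and 9.27 (0.07), and GALNT11 read 4.99 and 5.07 (0.08). Both had nearly the same value on both arrays. GALNT14 was the only GALNT gene above the floor that was lower, at 7.11 without and 6.91 with the inhibitor (-0.20).

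The GALNT genes below the floor went either way. GALNT5 had the highest difference among them, 3.94 without and 4.50 with the inhibitor (0.56), but ended short of the floor. GALNT13 read 0.11 higher. The other 6, GALNT8, GALNT15, GALNT16, GALNT17, GALNTL5 and GALNTL6, were lower, with differences from -0.33 (GALNT17) to -0.07 (GALNTL6). Over all 19, 12 were higher (50.8% of all 13763 genes) and the median difference was 0.11.

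Of the enzymes that cap and precede other glycans, few were named. FUT2, the fucosyltransferase of the secretor blood group trait, read 6.01 without and 6.27 with the inhibitor (0.26). ALG14 and ALG13 together form the enzyme that adds the second N-acetylglucosamine to the lipid-linked precursor of N-glycans. ALG14 read 5.01 and 5.37 (0.37), while ALG13 read 5.68 and 5.71 (0.03). The partners of this enzyme thus had unequal differences, each from 1 probe set. ALG1L2, related to a mannosyltransferase of the same pathway, lay below the floor with a difference of -0.08. MGAT4EP, MGAT4FP and MAN1B1-DT were also below it, with differences of 0.02, 0.00 and 0.10.

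Among the enzymes that start and lengthen heparan sulfate, the genes of the polymerase were higher, and the genes of the starting step lay near the floor and differed in direction. XYLT2, which attaches the first xylose of the linker to the core protein, read 4.70 without and 5.23 with the inhibitor (0.53), reaching the floor only with it. XYLT1, which catalyses the same step, read 4.62 and 4.20 (-0.42) and was below the floor on both arrays. The floor thus keeps the higher of the pair and leaves out the lower, so they give no common direction. EXT1 and EXT2 form the heparan sulfate polymerase. EXT1 read 7.80 without and 8.33 with the inhibitor (0.53), and EXT2 read 6.80 and 7.16 (0.37). Both subunits were therefore higher on the array with the inhibitor, by less than 1.5-fold. The related EXTL1, EXTL2 and EXTL3 were below the floor, with differences of 0.36, -0.38 and -0.10.

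The heparan sulfation genes held both ends of the range. NDST1, the N-deacetylase and N-sulfotransferase that makes the first modification of the chain, read 6.76 without and 7.37 with the inhibitor (0.61). This 1.53-fold difference was the highest of the 27, and 4.12% of all genes above the floor had a higher one. When a loess trend of the difference on the mean was subtracted, NDST1 read 0.58 and fell just short of 1.5-fold, which lies at 0.585. HS3ST1, which adds the 3-O-sulfate of the antithrombin binding site, read 6.34 without and 5.82 with the inhibitor (-0.52). This 1.43-fold difference was the lowest of the 27, and 4.55% of all genes above the floor had a lower one. HS2ST1, which sulfates iduronic acid at the 2-O position, read 7.95 and 7.96 (0.01), and turned to -0.02 when the median difference of all genes was subtracted.

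The remaining 11 heparan sulfation genes were below the floor. HS3ST5 had the largest difference among them, 4.04 without and 3.43 with the inhibitor (-0.61, 1.52-fold). The 6-O-sulfotransferase gene HS6ST1 read 4.47 and 4.62 (0.15), and HS6ST3 and HS6ST2 had differences of 0.25 and -0.01. NDST3 and NDST4 read 0.15 and 0.03 higher. The other 3-O-sulfotransferase genes (HS3ST2, HS3ST3A1, HS3ST3B1, HS3ST4 and HS3ST6) had differences from -0.09 (HS3ST2) to 0.15 (HS3ST4).

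The CHST sulfotransferases had no common direction. They add sulfate mainly to chondroitin, dermatan and keratan sulfate and to other N-acetylglucosamine or N-acetylgalactosamine residues. Of 15 named, 7 were above the floor, 3 higher (53.9% of all genes) and 4 lower, and their median difference was -0.04. The chondroitin 4-O-sulfotransferase genes differed from each other: CHST11 read 7.35 without and 7.07 with the inhibitor (-0.28), CHST12 read 6.08 and 6.35 (0.27), and CHST13 read 4.98 and 4.93 (-0.05). The chondroitin 6-O-sulfotransferase gene CHST3 read 5.73 and 5.60 (-0.13), and CHST7, which acts at the same position, read 5.25 and 5.36 (0.11). CHST14, the dermatan 4-O-sulfotransferase, read 5.91 and 6.01 (0.10). CHST15, which adds a second sulfate to 4-O-sulfated chondroitin, read 7.10 and 7.06 (-0.04). Of the 8 below the floor (CHST1, CHST2, CHST4, CHST5, CHST6, CHST8, CHST9 and CHST10), differences ran from -0.22 (CHST1) to 0.24 (CHST8). CHST6 had 2 probe sets, which read 0.22 and 0.12.

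**Figure D2:**
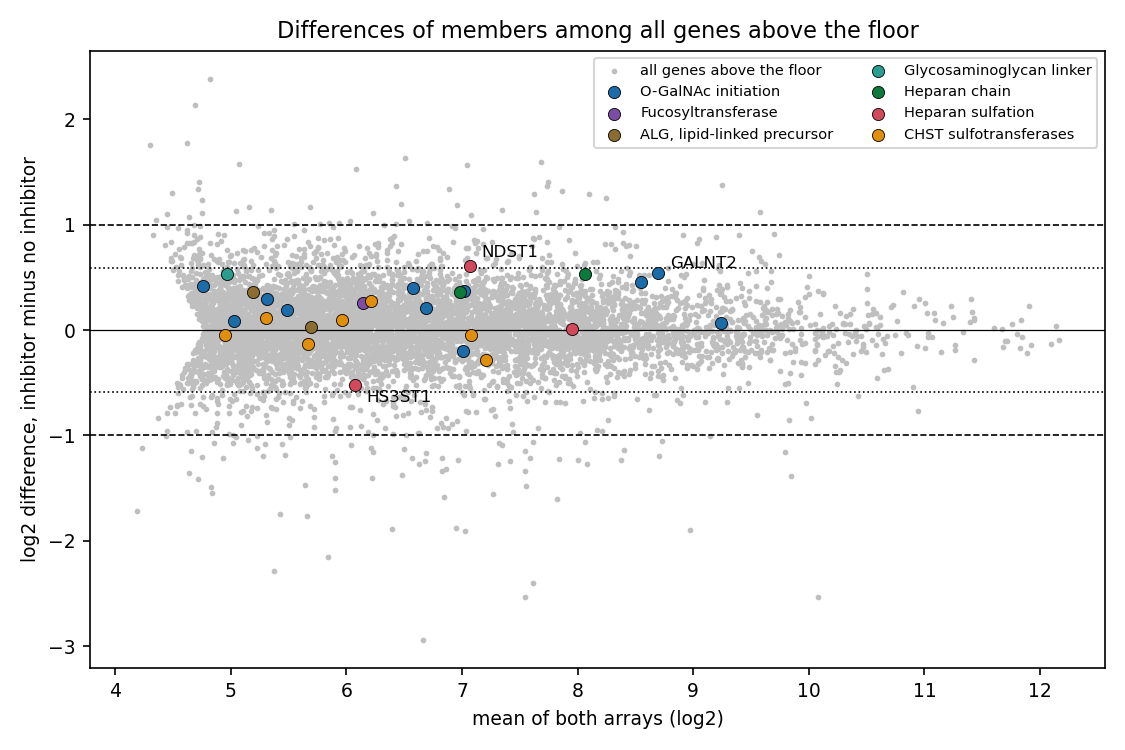
Log2 difference (inhibitor minus no inhibitor) against the mean of both arrays for the 7164 genes above the floor (grey) and the 27 glycan enzyme genes (coloured by role); dashed lines mark 2-fold and dotted lines 1.5-fold. All 27 lie between the dashed lines, NDST1 (0.61) is the only one beyond a dotted line, and HS3ST1 (-0.52) is the lowest.

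Among the glycan enzyme genes above the floor, NDST1 and HS3ST1 had the highest and the lowest difference, and GALNT2 the highest of the GALNT genes. Their upstream sequences are shown to place the motifs listed below in them. They were chosen after their values were seen. Each is the 250 bases before the RefSeq gene start, read 5′ to 3′ on the gene's strand in GRCh38.p14: chr5:150497529-150497778 on the plus strand for NDST1, chr4:11428895-11429144 on the minus strand for HS3ST1, and chr1:230066988-230067237 on the plus strand for GALNT2. Capitals mark matches to the motifs searched on both strands, which were TGACTCA (AP-1), CCGGAAG (ETS), GGGCGG (SP and KLF factors) and the EGR1 motif GCGTGGGCG. The EGR1 and GGGCGG motifs share letters and can overlap, but had no overlap in these stretches.
NDST1: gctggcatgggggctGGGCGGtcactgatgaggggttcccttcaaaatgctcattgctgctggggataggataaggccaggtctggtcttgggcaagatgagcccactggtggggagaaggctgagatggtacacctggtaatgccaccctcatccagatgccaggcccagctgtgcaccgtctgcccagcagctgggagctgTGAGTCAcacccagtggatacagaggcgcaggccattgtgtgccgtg
HS3ST1: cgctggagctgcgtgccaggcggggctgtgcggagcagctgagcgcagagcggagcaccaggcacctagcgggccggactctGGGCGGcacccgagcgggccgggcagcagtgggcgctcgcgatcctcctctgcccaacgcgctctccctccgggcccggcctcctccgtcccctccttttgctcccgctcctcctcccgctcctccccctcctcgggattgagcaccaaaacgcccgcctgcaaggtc
GALNT2: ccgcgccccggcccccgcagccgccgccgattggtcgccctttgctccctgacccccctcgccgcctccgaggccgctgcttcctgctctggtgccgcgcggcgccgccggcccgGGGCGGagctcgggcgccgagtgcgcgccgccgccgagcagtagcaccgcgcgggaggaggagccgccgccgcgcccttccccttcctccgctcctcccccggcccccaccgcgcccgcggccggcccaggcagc

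NDST1 had an AP-1 match, as TGAGTCA on the gene's strand, 47 to 41 bases before the start, and a GGGCGG match 235 to 230 bases before it. HS3ST1 and GALNT2 each had a single GGGCGG match, 168 to 163 and 135 to 130 bases before the start. Promoter windows of 300 bases (250 before to 50 after the start) were found for 24 of the 27 genes above the floor, 33 windows in all since some genes have several starts. The AP-1 motif was in 2 of the 33 (NDST1 and CHST14), or 6.06%, against 4.95% of all 35116 windows and 3.49% of the 8271 windows of genes above the floor. The ETS motif was in 3 (ALG14, CHST14 and CHST3), or 9.09%, against 10.3% of all windows and 17.7% of those of genes above the floor. GGGCGG was in 26, or 78.8%, against 45.0% and 69.0%. The EGR1 motif was in none of the 33 and in 0.795% and 1.39% of the others. These are matches of letters in windows that share their base composition with many promoters, and binding was not measured.

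Genes that supply, carry or trim the same chains were taken as whole lists and not picked gene by gene for how they moved. The lists were chosen with earlier results of these data known, so they may not be independent of the values. Over these lists 77 of 134 genes were named and 59 were above the floor. Of these, 40 were higher (53.9% of all genes) and 19 lower, with a median difference of 0.15. Genes that reached the floor only through their higher array could be counted in that direction only, and these counts were not repeated with another floor. At least 1.5-fold higher were 3 of the 59, or 5.08% (4.62% of all genes), and at least 1.5-fold lower 2, or 3.39% (3.60% of all genes). These shares past 1.5-fold are near those of all genes. All Golgi nucleotide sugar transporters and mucins of the lists were unnamed on the array, and of the glycan-binding galectins and selectins only SELE was named, below the floor.

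The 2 largest differences of these lists were those of DSEL and SULF2, which act on glycosaminoglycan chains. Of 17 listed genes of chondroitin chains and other glycosaminoglycan steps, 13 were named and 8 above the floor. Of these 8, 6 were higher (53.9% of all genes) and 2 lower, with a median of 0.20. DSEL, related to the epimerase that turns chondroitin into dermatan sulfate, read 5.87 without and 7.07 with the inhibitor, 2.30-fold higher. SULF2, a secreted sulfatase that removes 6-O-sulfate from heparan sulfate, read 10.4 and 9.22, 2.24-fold lower. Its second probe set read 4.97 and 4.66, a difference of -0.30, so its probe sets disagree by more than the 95% limit of 0.80. HPSE, the heparanase that cuts heparan sulfate, read 0.33 higher. The others of this list above the floor lay between -0.21 (CHPF) and that value. DSEL and SULF2 were the only genes of these lists that reached 2-fold, in opposite directions.

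Enzymes that make nucleotide sugars and the sulfate donor were split, with 9 of 17 higher (53.9% of all genes). Their median was 0.19 and their mean 0.09. PAPSS2, which makes the donor of sulfate used by all sulfotransferases, read 7.88 without and 8.70 with the inhibitor (0.82), and PAPSS1, its relative, 7.13 and 7.54 (0.42). UGDH, which makes the UDP-glucuronic acid used in glycosaminoglycan chains, read 9.13 and 9.88 (0.75). NANS, the sialic acid synthase, read 4.87 and 4.31 (-0.56), so it was above the floor only without the inhibitor. The subunits of GDP-mannose pyrophosphorylase also read lower, GMPPB at -0.55 and GMPPA at -0.53.

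Of the oligosaccharyltransferase and endoplasmic reticulum trimming genes, 13 of 15 were higher (53.9% of all genes), with a median of 0.21. DPAGT1, which catalyses the first step of the lipid-linked precursor, was lower, at 7.64 without and 6.89 with the inhibitor (-0.75). KRTCAP2, a subunit of the oligosaccharyltransferase, read 6.55 and 7.08 (0.54), and MOGS, the glucosidase that trims the first glucose, 6.63 and 6.99 (0.36). The list of core 1 and other transferases had 7 of 9 higher (53.9% of all genes). Its median was 0.04, close to that of all genes. POMT1, a subunit of the protein O-mannosyltransferase, read 5.78 without and 6.20 with the inhibitor (0.42). The other subunit, POMT2, read 4.50 and 4.90 (0.40). It was above the floor only with the inhibitor, so it could only be counted as higher. The Notch O-fucosyltransferase gene POFUT1 read 0.19 higher.

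The proteoglycan core proteins that carry these chains had no common direction. Of 10 above the floor, 5 were higher (53.9% of all genes), with a median of -0.03. The versican gene VCAN read 9.04 and 9.05 (0.01), but its second probe set, below the floor, read 3.43 and 4.41 (0.97). The list's median turned to 0.06 with averaged probe sets and to 0.01 without the floor. SDC1, the epithelial syndecan, read 8.05 without and 7.46 with the inhibitor (-0.58), just inside 1.5-fold. AGRN, the basement membrane proteoglycan agrin, read 6.96 and 7.43 (0.47), and GPC1, the glypican known from pancreatic cancer, 5.68 and 5.95 (0.27).

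**Figure D3:**
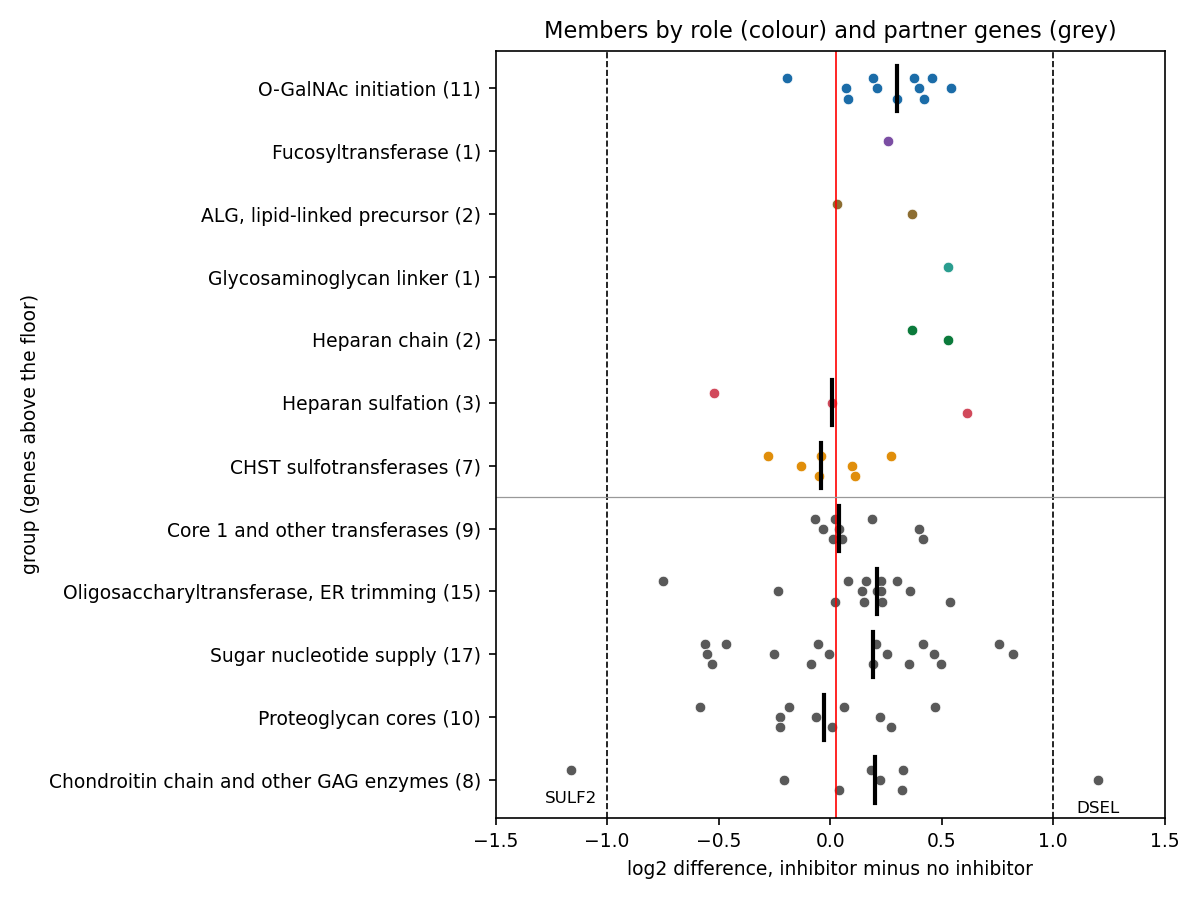
Log2 difference (inhibitor minus no inhibitor) of each gene above the floor, by role for the 27 glycan enzyme genes (colour) and by list for the 59 partner genes (grey), with the number of genes in brackets. Black bars are medians of groups of 3 or more, the red line is the median of all genes (0.03) and dashed lines mark 2-fold; the O-GalNAc group has its median at 0.30, and only DSEL and SULF2 pass 2-fold.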

How the data were processed

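Total RNA of 2 cultures was labelled from 100 ng with the GeneChip WT PLUS kit, per the labels' protocols. The authors deposited 1 log2 value per probe set and array, made with Affymetrix Expression Console 1.3 per the submitters' processing notes. The log2 scale is inferred from the values (1.16 to 13.4). How background was corrected and arrays were normalized is not given in the sources used here. Medians of 3.46 and 3.49 show nearly equal array distributions, so values were used as deposited, and a change in total RNA would not be seen. Groups came from the sample titles.

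Of 53617 probe sets, 16098 had a gene symbol, and microRNA and small Cajal body RNA symbols were set aside. Differences, counts past 1.5-fold and 2-fold and medians of lists with at least 3 genes were computed in pandas 2.3.3, numpy 2.4.6 and, for the loess trend, statsmodels 0.14.6 (Python 3.11.15). Promoters came from RefSeq (GRCh38.p14), matched by gene identifier. All 62 symbols matched the RefSeq gene table. Genes named in full were those past 1.5-fold, the extremes of each role group, members of these families with disagreeing probe sets and the 3 largest differences of each partner list; most other genes above the floor, and VCAN, were added after their values were seen. The gene families and lists were chosen with earlier results of these data known. Alternatives were 2 scalings, 3 other floors, averaged probe sets, a 3-fold threshold and leaving out a group's most different gene.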

Additional observations from a re-analysis of the deposited data

How the results depend on the processing

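No paired analysis was possible because there was only 1 array of each kind, which also means that none could be omitted. No gene of the 27 passed 2-fold under either scaling (median difference or loess trend subtracted), the 75th percentile floor, a floor on the mean of both arrays (chosen after seeing the data) or averaged probe sets, and none of the 62 did without a floor. At 1.5-fold the count of higher genes was 0 with the loess trend subtracted, since NDST1 then read 0.58, and 1 otherwise. The count of lower genes was 1 without a floor, which admits HS3ST5. Higher at all were 38 of 62 without a floor (50.8% of all genes) and 10 of 13 at the 75th percentile floor (52.5%). Of the 27, 19 were higher with the loess trend subtracted (49.2% of all genes above the floor) and 20 with the median difference subtracted (50%). The median difference of the glycan enzyme genes stayed between 0.08 (no floor, 62 genes) and 0.37 (75th percentile floor, 13 genes). The GALNT median was 0.11 without a floor and between 0.25 and 0.38 under the other alternatives. The CHST median turned from -0.04 to 0.03 without CHST11. With averaged probe sets GALNT2 read 0.30. HS2ST1 and ALG13 both read -0.01 with the loess trend subtracted. Leaving out a gene was not run for the heparan sulfation group, which would keep only 2. The number of arrays limits the precision of every value.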
